A study of Mus musculus with 24 samples.

Results

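The lungs of C3H/HeOuJ (OuJ) mice, a strain with a sufficient Tlr4, were compared after 24 h of ozone and in air. The comparison rests on the 3 arrays whose labels give this strain and 24 h of ozone and the 3 whose labels give this strain and air, 6 of 24 arrays in all. Each array holds RNA of the left lung lobe of 1 male mouse. The other arrays of the study are OuJ lungs at 6 and 48 h of ozone and lungs of C3H/HeJ (HeJ) mice, which carry a dominant negative Tlr4, in air and at 6, 24 and 48 h, with 3 mice in each of the 8 groups. All mice share the C3H background and the sex. The labels state neither the ozone concentration nor the age of the mice. The series asks how transcripts of the lung answer ozone where Tlr4 is deficient, and the OuJ mice are the Tlr4-sufficient side of that question.

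Ozone is an oxidant gas that reacts with the fluid and membranes lining the airways and leaves oxidized lipids and proteins behind. Cells answer damaged protein with the heat shock response, in which HSF1 binds heat shock elements near the genes of chaperones, and oxidants with NRF2, which binds antioxidant elements near the genes of glutathione and detoxifying enzymes. TLR4 is the receptor for bacterial lipopolysaccharide and signals through NF-kB to cytokines, chemokines and acute phase genes.

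The arrays at 24 h and in air belong to different code series in the labels, series 10 and series 3, so 24 h of ozone and the code series cannot be told apart. The labels name the mice of a group biological replicates, so spreads are between mice. Pearson correlations over the probe sets of 2 arrays (probe sets are no independent replicates) were 0.9708 to 0.9788 within air, 0.9687 to 0.9721 within 24 h and 0.9584 to 0.9712 between the groups. RNA quality was read from control probe sets. The ratio of 5' to 3' signal of Gapdh was 0.843 ± 0.0798 (SD, n = 3) in air and 0.851 ± 0.0846 at 24 h (exact permutation test, two-sided, p = 0.8, adjusted over both control genes 0.8). That of the actin control was 0.869 ± 0.0214 and 0.853 ± 0.0388 (exact p = 0.6, adjusted 0.8). With 3 arrays against 3 this test cannot go below 0.1. Lung cell markers had signal in both groups, with no other tissue to compare. The summed signal of 18 alveolar type 2 markers was 170137 to 201155 in air and 196511 to 234517 at 24 h, and that of 17 club cell markers 161315 to 200255 and 192449 to 221785. Replicate 3 stood apart in both groups, as its values show below. In air it had the highest Hspa1a, Hspa1b, Fos and Egr1 signals, and at 24 h the highest signals of most heat shock genes. In bulk lung, fewer cells of a type and less RNA per cell cannot be told apart.

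Of 8008 genes tested, 526 passed (adjusted p under 0.05), which is 6.57%. Of these 253 were higher at 24 h (3.16%) and 273 lower (3.41%), and the median difference over all genes was -0.03. Differences are of log2(signal + 16), 24 h minus air, ± SE, with 3 arrays a group; the added 16 makes the change of low genes look smaller. Adjusted p-values are Benjamini-Hochberg values from limma over all genes tested. Counts in the gene lists below are to be read beside these shares. Where few or no genes of a list passed, the count may lie near them. The chaperones of the heat shock response led the rises, together with Cxcl5, Ccl20, Saa3, Retnla, Timp1 and Mt2, while B cell, T cell and natural killer cell genes and the S100a8/S100a9 pair led the falls. The 3 arrays at 24 h all lay above the 3 air arrays in 900 genes (11.2%) and all below them in 1198 (15%), and 520 of the 526 genes that passed were among these. When each array was centred on its median, the split became 331 higher and 170 lower. Without 24 h replicate 3 the total was 243, without air replicate 1 it was 283 and without air replicate 2 it was 289. Where the call of a gene against air did not survive leaving out 1 of the 6 arrays, those arrays are named where its adjusted p is given, with the range of adjusted p over the 6 fits.

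**Figure D1:**
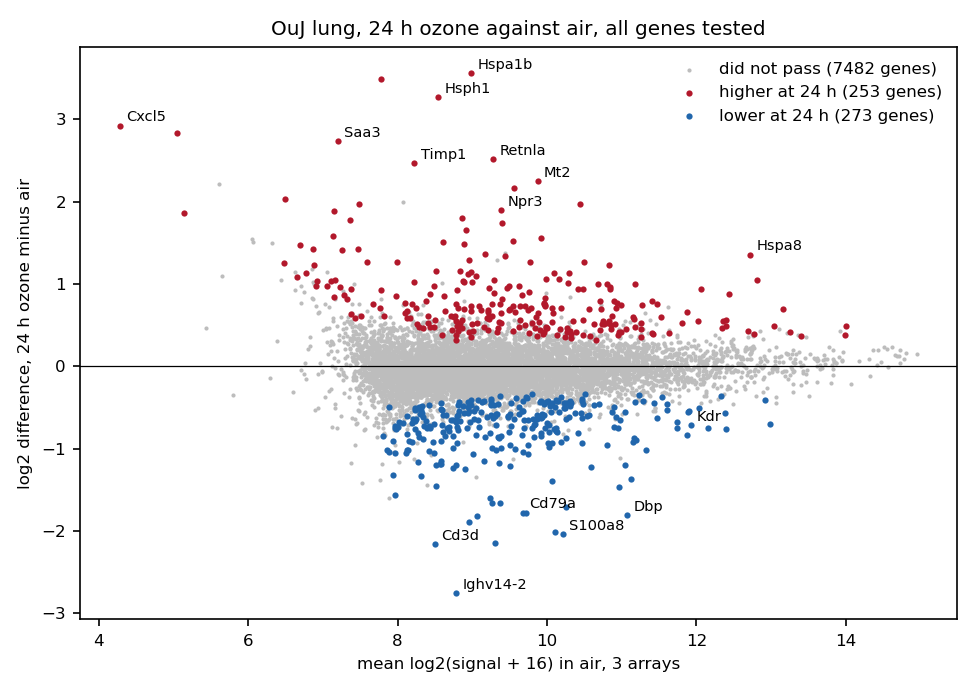
Difference at 24 h (log2(signal + 16), ozone minus air, 3 arrays a group) of each of the 8008 genes against its mean level, with the 253 genes that passed upward and the 273 that passed downward in colour. Hspa1b, Hspa1a and Hsph1 lie highest and Ighv14-2 lies lowest.

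**Figure D2:**
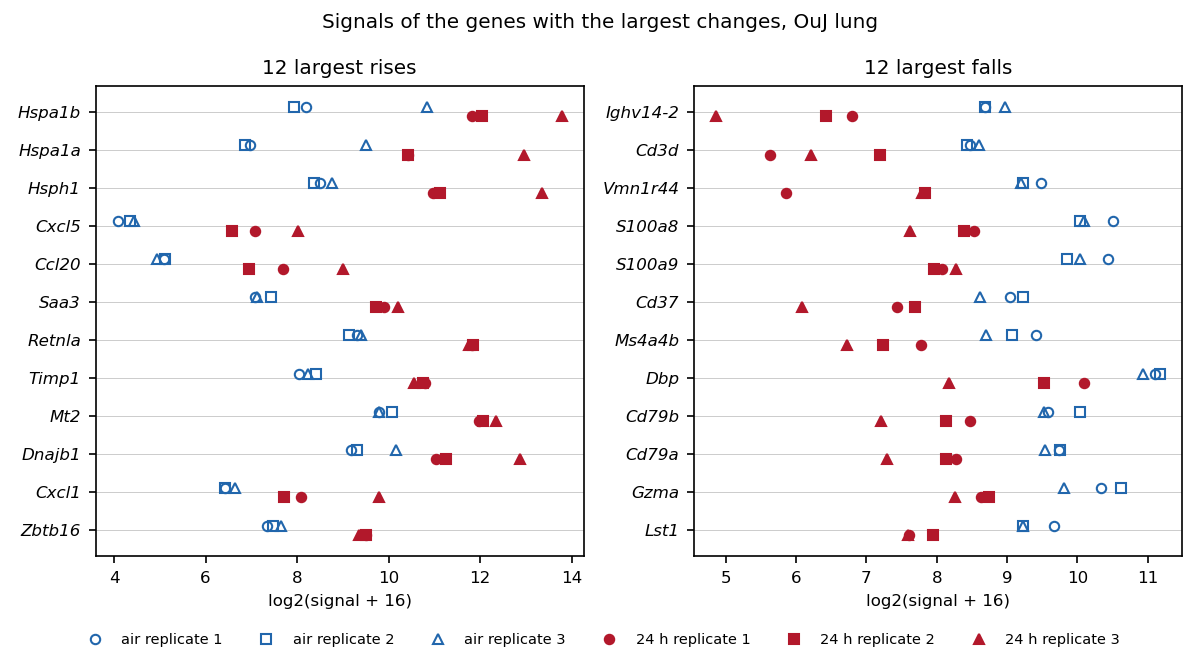
Signal in each of the 6 arrays, on a log axis, of the 12 largest rises and 12 largest falls among genes that passed with no overlap between the groups. In each of the 24 genes the 3 arrays at 24 h lie on 1 side of the 3 air arrays, and 24 h replicate 3 is highest in Hsph1, Hspa1a, Hspa1b and Dnajb1.

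Hspa1a and Hspa1b encode the inducible Hsp70 chaperones, which bind unfolded protein, and rose most. Both genes hold a heat shock element, written here as GAANNTTC, which reads the same on both strands. The 250 bases before the start site of Hspa1b (RefSeq, GRCm38.p6, chr17:34959239-34959488, minus strand), printed 5′ to 3′ with the element in capitals, are shown because this gene had the largest rise of all:
Hspa1b: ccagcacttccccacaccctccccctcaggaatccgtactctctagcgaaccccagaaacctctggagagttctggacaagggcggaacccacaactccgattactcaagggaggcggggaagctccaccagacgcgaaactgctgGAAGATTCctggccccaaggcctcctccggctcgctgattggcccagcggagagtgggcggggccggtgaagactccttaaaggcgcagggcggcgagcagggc
The same stretch of Hspa1a (chr17:34972157-34972406, minus strand) is identical at 247 of 250 positions (98.8%). The genes are near-identical copies and their values are uncertain as separate measures.

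Other chaperone genes that passed with an element in the window from 250 bases before to 50 after the start site carry it in the sequences below. They were chosen because they passed and hold the letters, and are shown with 10 bases on each side, or up to the end of the window, so that the matches can be compared:
Hsph1: gcagattctgGAAAGTTCtcctcagtag
Dnaja1: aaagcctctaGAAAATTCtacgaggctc
Chordc1, first match: tgtgcaaccgGAACGTTCgggaaaattc
Chordc1, second match: gaacgttcggGAAAATTCctgaagcagt
Dnaja4, first match: gaacctccgcGAACGTTCtgggcctatg
Dnaja4, second match: cctcctggcgGAACCTTCcgccggcgcc
Bag3: gatgggaccaGAAGTTTC
Fkbp4: cgcttctctaGAAAGTTCtccgctcccg
Hspb1, first match: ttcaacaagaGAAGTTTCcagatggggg
Hspb1, second match: gatgggggcaGAACCTTCctggccccgc
Hspb8: gaagccaggaGAAGTTTCtaggctcgcg
Hspd1: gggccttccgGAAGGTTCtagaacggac
Hspe1: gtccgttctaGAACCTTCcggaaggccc
The element starts at position -104 in Hspa1b, -124 in Dnaja1, -139 in Hspd1 and 21 in Hsph1, counted from the start site. Hspd1 and Hspe1, which encode the mitochondrial chaperonin and its lid, share 1 match between them (chr1:55088054-55088081) and read it from opposite strands. The call of Hspe1 was lost without air replicate 1, 2 or 3 or 24 h replicate 2 or 3 (adjusted p from 0.0186 to 0.305), and that of Hspb1 was lost without air replicate 1 or 2 or 24 h replicate 3 (adjusted p from 0.00697 to 0.142). Of the 23 genes tested for Hsp70 chaperones and their cofactors, 7 of the 11 that passed and have a window held the element (63.6%), against 2 of 10 that did not pass (20%). Among Hsp90, small heat shock and chaperonin genes the shares were 5 of 9 (55.6%) and 1 of 9 (11.1%). The near-identical Hspa1a and Hspa1b both count among the 7, and Hspd1 and Hspe1, with their shared match, both count among the 5. Members of these shares are thus not all independent. Of all 32851 windows 7.86% held the element, of the windows of genes tested 7.12%, of those that rose 10.1% and of those that fell 6.42%. A match is a description of letters, not a binding site.

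Of the 23 genes for Hsp70 chaperones and cofactors, 12 rose and 0 fell, with a median difference of 0.93. Hspa1a gave signals of 109, 99.5 and 713 in air and 1357, 1358 and 7988 at 24 h. Air replicate 3 was far above the other air arrays, yet all 24 h arrays lay above it, and the difference was 3.49 ± 0.63 (adjusted p = 0.00116). Hspa1b gave 276, 227 and 1821 in air and 3618, 4218 and 14051 at 24 h, with the same order of arrays, and differed by 3.56 ± 0.62 (adjusted p = 0.000866). Hsph1, a nucleotide exchange factor of Hsp70, gave 345, 316 and 417 in air and 2003, 2225 and 10396 at 24 h. The groups did not overlap, 24 h replicate 3 was the highest array, and the difference was 3.28 ± 0.39 (adjusted p = 1.69e-05); without that array it was 2.51 (adjusted p = 6.94e-06). Hspa8, the constitutive Hsc70, started from a high level and gave 5722, 6936 and 7750.5 in air and 15876, 14646 and 22443 at 24 h. It rose by 1.36 ± 0.15 (adjusted p = 9.76e-06) with no overlap. Its 4 probe sets above the signal filter differed by 0.43 to 1.36.

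Their co-chaperones rose too. Dnajb1, an Hsp40 co-chaperone, gave 565, 620.2 and 1129 in air and 2072, 2434 and 7519 at 24 h and rose by 2.17 ± 0.33 (adjusted p = 0.000258). Dnaja1, another Hsp40, gave 1245, 1310.0 and 1603 in air and 3560.1, 4144 and 10878 at 24 h and rose by 1.97 ± 0.28 (adjusted p = 0.000135). Chordc1, a partner of Hsp90, gave 476, 462 and 467 in air and 1039, 1145 and 2910.4 at 24 h and rose by 1.66 ± 0.27 (adjusted p = 0.000538). In these 3 genes replicates 1 and 2 at 24 h lay close together and replicate 3 well above them. The mean of all 23 genes, relative to the mean of the air arrays, was 0.79, 0.79 and 1.76 in 24 h replicates 1 to 3 and -0.13, -0.12 and 0.24 in the air arrays. Leaving 24 h replicate 3 out, 11 of the genes passed.

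Of the 22 genes for Hsp90, small heat shock, mitochondrial and chaperonin proteins, 11 rose and 0 fell (median 0.46). Hsp90aa1, the inducible Hsp90, gave 4214, 3956 and 4653 in air and 7116, 6640.3 and 11531 at 24 h. All 3 arrays at 24 h were above air, and it rose by 0.94 ± 0.16 (adjusted p = 0.000934). Hspd1, the mitochondrial Hsp60, gave 1729.9, 1642 and 2079 in air and 3329.6, 3006 and 7714 at 24 h and rose by 1.23 ± 0.23 (adjusted p = 0.00183). Fkbp4, an Hsp90 co-chaperone of steroid receptors, gave 486, 489.6 and 404 in air and 722, 735 and 1598 at 24 h. It rose by 1.02 ± 0.25 (adjusted p = 0.0157), and this call was lost without air replicate 3 or 24 h replicate 3 (adjusted p from 0.00918 to 0.13). Hspb8, a small heat shock protein, rose by 0.74 ± 0.18 (adjusted p = 0.0116), a call that was lost without air replicate 2 or 24 h replicate 3 (adjusted p from 0.00829 to 0.106). Cct4, a subunit of the cytosolic chaperonin, rose by 0.46 ± 0.10 (adjusted p = 0.00826), a call that was lost without 24 h replicate 3 (adjusted p from 0.00489 to 0.0761). This list leaned on 24 h replicate 3: its mean was 0.26, 0.31 and 0.91 above air in replicates 1 to 3, and 2 of the 22 genes passed without that array. Without air replicate 1, 2 or 3 the number was 6, 4 or 6. Under quantile normalization 7 passed.

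Of 25 genes of folding in the endoplasmic reticulum and of the unfolded protein response, 8 rose and 0 fell (median 0.25). Hspa5, the Hsp70 of the endoplasmic reticulum known as BiP, gave 5622, 5776 and 5209 in air and 9736, 8419.6 and 12804 at 24 h. It rose by 0.88 ± 0.13 (adjusted p = 0.000258) with every 24 h array above air. Manf, a secreted factor induced by reticulum stress, gave 1117, 1075 and 1041 in air and 2078, 2125 and 3031 at 24 h and rose by 1.13 ± 0.18 (adjusted p = 0.000461). Atf4, the transcription factor of the integrated stress response, gave 1937, 2074 and 2077 in air and 3095, 3008 and 4259 at 24 h and rose by 0.75 ± 0.14 (adjusted p = 0.00134). Ddit3 (CHOP), a target of ATF4, gave 376, 545 and 392 in air and 684, 555 and 958 at 24 h; the rise of 0.71 ± 0.16 (adjusted p = 0.00995) was lost without air replicate 1 or 24 h replicate 3 (adjusted p from 0.00305 to 0.0949). Dnajb9, a co-chaperone of BiP, rose by 0.70 ± 0.18 (adjusted p = 0.0178), and the call was lost without air replicate 1, 2 or 3 or 24 h replicate 2 or 3 (adjusted p from 0.00375 to 0.124). Of the 25 genes 3 passed without 24 h replicate 3, and 4, 5 and 5 without air replicate 1, 2 or 3.

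Of 20 amino acid transport and tRNA synthetase genes linked to ATF4, 2 rose (median 0.16): Slc3a2, the heavy chain of amino acid exchangers, by 0.56 ± 0.12 (adjusted p = 0.00459), and Iars, the isoleucine tRNA synthetase, by 0.43 ± 0.13 (adjusted p = 0.0405), a call that was lost without air replicate 1, 2 or 3 or 24 h replicate 1 or 3 (adjusted p from 0.00563 to 0.211). None of 29 proteasome genes and none of 17 ribosomal protein genes passed, with medians of -0.028 and 0.037, whose sign changes with the scaling. The proteasome gene with the smallest p, Psmb5, differed by 0.25 ± 0.12 (adjusted p = 0.247), and among ribosomal proteins Rps2 differed by 0.35 ± 0.12 (adjusted p = 0.0758). Of 17 ribosome assembly genes 1 rose, Gnl3, by 0.47 ± 0.11 (adjusted p = 0.0125); the call was lost without air replicate 2 or 24 h replicate 3 (adjusted p from 0.0171 to 0.0899).

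Cirbp, a cold-inducible RNA-binding protein known to be lowered by heat, went the other way. Its signals were 659, 764 and 716 in air and 355, 283 and 265 at 24 h, with no overlap, and it fell by 1.21 ± 0.19 (adjusted p = 0.000461). Srsf5, a splicing factor, gave 8759, 7079 and 8532 in air and 5565, 4962 and 4421 at 24 h and fell by 0.70 ± 0.13 (adjusted p = 0.00124). These were the 2 falls among 17 cold-inducible and splicing genes. The 2 rises were Clk4, a kinase of splicing factors, at 0.48 ± 0.14 (adjusted p = 0.0379), and Tra2a, a splicing regulator, at 0.62 ± 0.18 (adjusted p = 0.0383). Neither call was stable: that of Clk4 was lost in each of the 6 fits (adjusted p from 0.0624 to 0.14), and that of Tra2a was lost without air replicate 1, 2 or 3 or 24 h replicate 1 or 3 (adjusted p from 0.0197 to 0.245).

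**Figure D3:**
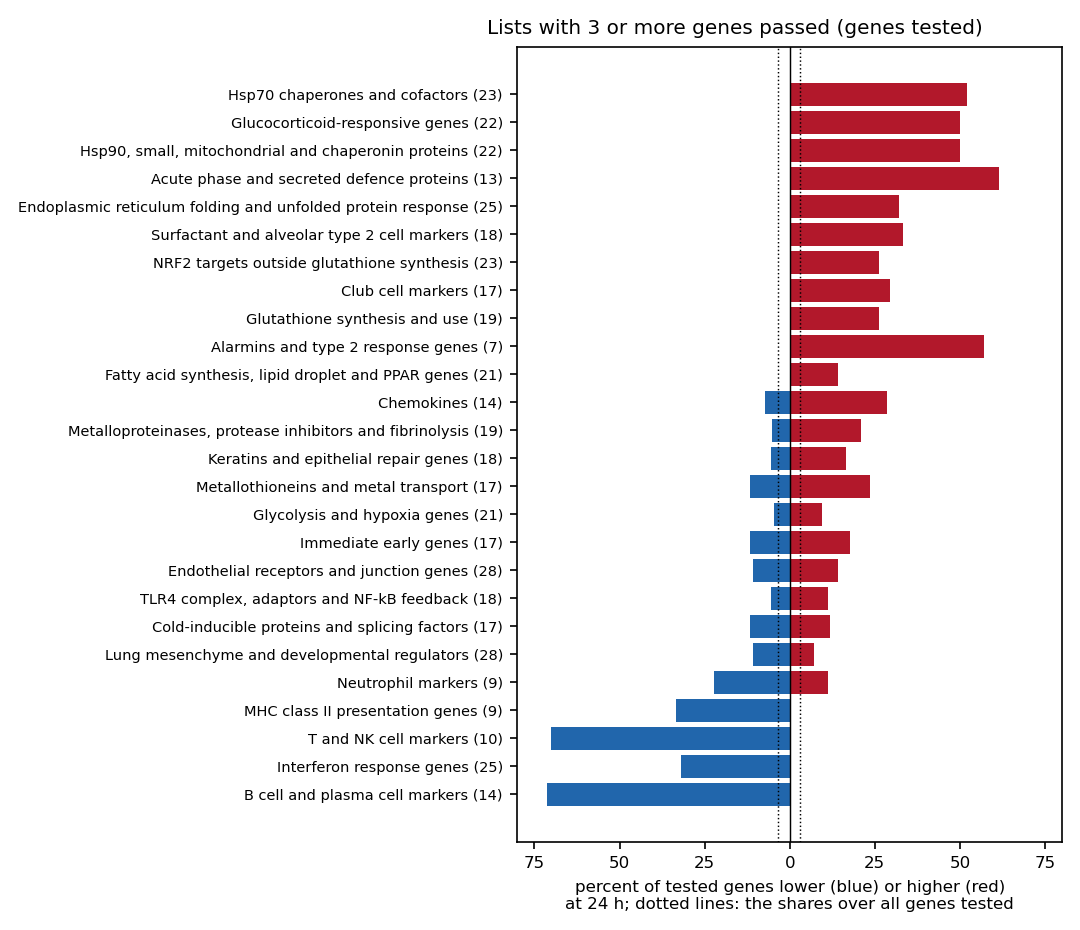
Share of the genes tested in each list that were higher (right) or lower (left) at 24 h, for lists with 3 or more genes that passed; dotted lines are the shares over all 8008 genes, 3.16% higher and 3.41% lower. Heat shock, glucocorticoid-responsive and acute phase lists hold only rises, and B cell, T and NK cell, interferon and MHC class II lists only falls.

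Enzymes that make and use glutathione, the main soluble antioxidant of the cell, rose in 5 of 19 cases and fell in 0 (median 0.11). Gclc, the catalytic subunit of the enzyme that limits glutathione synthesis, gave 567, 709.6 and 717 in air and 1864, 1777 and 3398 at 24 h. All 24 h arrays lay far above air and it rose by 1.74 ± 0.22 (adjusted p = 2.69e-05). Gpx2, an epithelial glutathione peroxidase, gave 358, 370.4 and 411 in air and 705, 617 and 777 at 24 h and rose by 0.85 ± 0.14 (adjusted p = 0.00045). Gsta3, a glutathione transferase, gave 861, 1009.9 and 1070.5 in air and 1504, 1697 and 1785 at 24 h and rose by 0.75 ± 0.17 (adjusted p = 0.00637). Gsta4 and Mgst1, also transferases, rose by 0.65 ± 0.17 (adjusted p = 0.025) and 0.39 ± 0.11 (adjusted p = 0.0366). The call of Gsta4 was lost without air replicate 1 or 2 or 24 h replicate 1, 2 or 3 (adjusted p from 0.0273 to 0.147), and that of Mgst1 was lost without air replicate 1, 2 or 3 or 24 h replicate 1 or 3 (adjusted p from 0.0392 to 0.141). Of the 19 genes 3 passed without 24 h replicate 1 or 3, and 3 without air replicate 1 or 2.

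Among 23 other targets of NRF2, 6 rose and 0 fell (median 0.15). Osgin1, an oxidative stress-induced growth inhibitor, gave 161, 122 and 213 in air and 424, 416 and 554 at 24 h and rose by 1.42 ± 0.22 (adjusted p = 0.000315). Aldh3a1, an aldehyde dehydrogenase, gave 240.3, 266 and 290.1 in air and 421, 402 and 475 at 24 h and rose by 0.67 ± 0.13 (adjusted p = 0.00205). Nfe2l2, which encodes NRF2 itself, gave 1906, 2657 and 2329 in air and 2890.4, 3639 and 3758 at 24 h; the rise of 0.58 ± 0.13 (adjusted p = 0.00744) was lost without air replicate 1 or 24 h replicate 3 (adjusted p from 0.00306 to 0.0676). Sod2, the mitochondrial superoxide dismutase, rose by 0.42 ± 0.092 (adjusted p = 0.00637), a call that was lost without air replicate 1 (adjusted p from 0.00838 to 0.0522). Txnrd1, thioredoxin reductase, rose by 0.42 ± 0.11 (adjusted p = 0.0249); the call was lost without air replicate 1 or 3 or 24 h replicate 1, 2 or 3 (adjusted p from 0.0327 to 0.104). Of the 23 genes 3 passed without 24 h replicate 3 or air replicate 1. Antioxidant elements, searched as TGACNNNGC on both strands, stood in the windows of 2 of the 3 glutathione genes that rose and have a window and of 2 of the 5 other NRF2 targets (40%). Of those that did not pass, 2 of 12 glutathione genes (16.7%) and 5 of 15 other targets (33.3%) held it, against 12.4% of all windows and 16.8% of the windows of genes tested. Of 20 cytochrome P450 and other detoxifying genes 2 rose: Aldh1a7, an aldehyde dehydrogenase, by 0.55 ± 0.11 (adjusted p = 0.00421) and Ces1g, a carboxylesterase, by 0.96 ± 0.27 (adjusted p = 0.0366), a call that was lost without air replicate 1 or 24 h replicate 1, 2 or 3 (adjusted p from 0.0168 to 0.251).

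The metallothioneins, small cysteine-rich proteins that bind zinc and copper, rose. Mt2 gave 864, 1054 and 868 in air and 4037, 4255 and 5198 at 24 h. The groups were far apart, with a difference of 2.25 ± 0.21 (adjusted p = 1.19e-06). Mt1 gave 1563, 1318 and 1397 in air and 3855, 2798 and 3849 at 24 h and rose by 1.27 ± 0.19 (adjusted p = 0.000258). The 250 bases before the start site of Mt2 (RefSeq, GRCm38.p6, chr8:94172368-94172617, plus strand) are shown because they hold 5 matches to TGCNCNC. These letters stand for the metal element here, were searched on both strands and are printed in capitals:
Mt2: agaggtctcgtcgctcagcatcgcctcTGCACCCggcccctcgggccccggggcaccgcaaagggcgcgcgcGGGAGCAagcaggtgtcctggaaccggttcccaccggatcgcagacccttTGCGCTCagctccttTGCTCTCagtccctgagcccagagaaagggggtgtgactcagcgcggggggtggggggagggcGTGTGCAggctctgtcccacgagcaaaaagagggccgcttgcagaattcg
Of all 32851 stretches of this length 44.4% held at least 1 such match and 0.344% held 5 or more. The windows searched for the heat shock element were searched for these letters too. Among the metal genes with a window, 3 of the 4 that rose held a match (75%), against 7 of the 8 that did not pass (87.5%). Of all genes with a window, 61.1% of those that rose held one, 64.2% of those that fell and 64.7% of those tested. A match thus did not set the genes that rose apart.

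The list of 17 metal genes held 4 rises and 2 falls in all. Cp (ceruloplasmin), a copper-carrying ferroxidase, gave 2872, 2958 and 2989 in air and 4308, 4469.9 and 4574 at 24 h and rose by 0.60 ± 0.12 (adjusted p = 0.00232). Slc40a1 (ferroportin), the iron exporter, gave 418, 365 and 385 in air and 194, 275 and 212 at 24 h and fell by 0.75 ± 0.16 (adjusted p = 0.00595). Lcn2, which binds bacterial iron carriers, gave 1054, 1581 and 1154 in air and 3336, 2839 and 2189 at 24 h and rose by 1.13 ± 0.19 (adjusted p = 0.000759).

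Acute phase and secreted defence proteins rose in 8 of the 13 genes tested and fell in 0, with a median of 0.70; 10 more on the array were under the signal filter. Saa3, a serum amyloid A made in the lung, gave 119, 156 and 123 in air and 934, 832 and 1156 at 24 h. It rose by 2.73 ± 0.30 (adjusted p = 8e-06). Saa3 lay under the cut-off of that filter in every OuJ air array and entered through other arrays. Itih4, an inter-alpha-trypsin inhibitor heavy chain, gave 715, 681 and 635 in air and 1743, 1851 and 1617 at 24 h and rose by 1.34 ± 0.13 (adjusted p = 1.24e-06). Serpina3n, a serine protease inhibitor, gave 489, 504 and 371 in air and 1553, 2017 and 1353 at 24 h and rose by 1.81 ± 0.21 (adjusted p = 1.09e-05). Hp (haptoglobin), which binds free haemoglobin, gave 9485, 8512 and 9489 in air and 15752, 14226 and 14587 at 24 h and rose by 0.70 ± 0.08 (adjusted p = 1.03e-05). In all 4 genes the groups stood apart. Of the 13 genes 6 passed without 24 h replicate 1, and 6 without replicate 3. None of 14 complement genes passed; Cfb, of the alternative pathway, had the smallest p and gave 183, 248 and 93.3 in air and 197, 346 and 344 at 24 h, a difference of 0.76 ± 0.27 (adjusted p = 0.0952) with overlap.

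Timp1, an inhibitor of matrix metalloproteinases, gave 248, 323 and 284 in air and 1751, 1714 and 1477 at 24 h. With 2.47 ± 0.20 (adjusted p = 1.15e-07) it had the smallest p of any gene named here. Thbs1 (thrombospondin 1), a matrix protein that activates latent TGF-beta, gave 622, 670.2 and 936 in air and 2331, 1538 and 2691 at 24 h and rose by 1.52 ± 0.23 (adjusted p = 0.000258). The list of 19 protease, inhibitor and fibrinolysis genes held 4 rises and 1 fall. Plat, the tissue plasminogen activator, rose by 1.05 ± 0.30 (adjusted p = 0.0373), a call that was lost without air replicate 1, 2 or 3 or 24 h replicate 2 or 3 (adjusted p from 0.0357 to 0.138). Timp3, which is also an alveolar type 1 marker, rose by 0.42 ± 0.12 (adjusted p = 0.0366), a call that was lost without air replicate 1 or 2 or 24 h replicate 1, 2 or 3 (adjusted p from 0.0452 to 0.123). Serpinb1a, an inhibitor of neutrophil proteases, fell by 1.04 ± 0.29 (adjusted p = 0.0303), a call that was lost without air replicate 1, 2 or 3 or 24 h replicate 1 or 3 (adjusted p from 0.00809 to 0.129). Of the 19 genes 2 passed without air replicate 1 or 2 or 24 h replicate 3, and 3 without air replicate 3 or 24 h replicate 1 or 2.

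Of 14 chemokines tested, 4 rose and 1 fell, and 8 more on the array were under the signal filter. Cxcl5, Cxcl1 and Ccl20 lay under the cut-off of that filter in every OuJ air array and entered through other arrays. With a filter on the mean signal the 5 chemokines that passed became 2, and with no filter 8, so these counts depend on the filter. Cxcl5, a neutrophil attractant of the alveolar epithelium, was close to 0 in air and gave 0.9, 4.4 and 5.7 in air and 118, 79 and 242 at 24 h. On the log2(signal + 16) scale it rose by 2.93 ± 0.53 (adjusted p = 0.00116), a size set by the added constant: it was 5.01 with 1 in place of 16 and 1.56 with 64, and it passed with each. Ccl17, an attractant of type 2 helper T cells, gave 176, 100.2 and 143 in air and 434, 352 and 386 at 24 h and rose by 1.41 ± 0.18 (adjusted p = 3.16e-05). Cxcl1, another neutrophil attractant, gave 69.8, 69.6 and 83.3 in air and 256, 193 and 867 at 24 h, highest in 24 h replicate 3; the rise of 2.04 ± 0.43 (adjusted p = 0.00463) was lost without 24 h replicate 3 (adjusted p from 0.00237 to 0.0505). Ccl20, the ligand of CCR6, gave 18.2, 18.4 and 14.6 in air and 190.3, 108 and 499 at 24 h and showed the same order; its rise of 2.84 ± 0.64 (adjusted p = 0.00744; 1.84 with an added constant of 64) was lost without 24 h replicate 3 (adjusted p from 0.00563 to 0.0703). Ccl5 (RANTES), made by T and NK cells among others, gave 864, 849 and 954 in air and 558, 572 and 348 at 24 h. It fell by 0.86 ± 0.19 (adjusted p = 0.00668), a call that was lost without 24 h replicate 3 (adjusted p from 0.00642 to 0.0676). Of the 14 genes 2 passed as higher without 24 h replicate 3.

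Among 13 cytokines and receptors, 2 rose. Il33, an alarmin of the lung epithelium, gave 786, 1002 and 791 in air and 1772, 1699.7 and 1406 at 24 h and rose by 0.91 ± 0.19 (adjusted p = 0.0054). Osmr, the oncostatin M receptor, gave 1024, 914 and 1043 in air and 1543, 1545 and 1920.2 at 24 h and rose by 0.73 ± 0.14 (adjusted p = 0.00169). Tnf and Il6 were under the signal filter. Of the 7 type 2 response genes tested, 4 rose (median 0.91): Il33, Ccl17, Retnla and Socs3. Retnla, a secreted protein induced by IL-4 and IL-13, gave 614, 549 and 662 in air and 3577, 3659.8 and 3433 at 24 h and rose by 2.52 ± 0.36 (adjusted p = 0.000178). Socs3, a feedback inhibitor of cytokine signalling, gave 268, 428 and 462 in air and 698, 1002 and 1920.1 at 24 h and rose by 1.52 ± 0.29 (adjusted p = 0.00205). The others, Chil3, Mrc1 and Cish, differed by 0.51 ± 0.17 (adjusted p = 0.079), 0.19 ± 0.14 (adjusted p = 0.481) and 0.16 ± 0.20 (adjusted p = 0.707).

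Tlr4 itself gave 208, 254 and 199.9 in air and 238, 289.7 and 244 at 24 h. The groups overlapped and the difference was 0.21 ± 0.17 (adjusted p = 0.519). Among the 18 genes of the TLR4 complex, its adaptors and NF-kB feedback, 2 rose and 1 fell. Bcl3, a nuclear partner of NF-kB, gave 54, 111 and 109 in air and 201, 199.7 and 492 at 24 h and rose by 1.48 ± 0.30 (adjusted p = 0.00409). Cd14, the co-receptor that hands lipopolysaccharide to TLR4, gave 914, 940.2 and 884 in air and 1224, 1442 and 1522 at 24 h; the rise of 0.60 ± 0.14 (adjusted p = 0.00792) was lost without 24 h replicate 3 (adjusted p from 0.00629 to 0.0543). Tlr3, a receptor for double-stranded RNA, fell by 0.66 ± 0.20 (adjusted p = 0.0497), a call at the threshold that was lost without air replicate 1, 2 or 3 or 24 h replicate 1 or 3 (adjusted p from 0.0424 to 0.239). None of 14 prostanoid genes passed. Ptgs2 (COX-2), which makes prostaglandins, gave 99.3, 135 and 163 in air and 132, 199 and 257 at 24 h, a difference of 0.49 ± 0.25 (adjusted p = 0.287) with overlap.

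B cell and plasma cell genes fell in 10 of the 14 tested and rose in 0, with a median of -0.76. Cd79a and Cd79b form the signalling part of the B cell receptor. Cd79a gave 834, 847 and 729 in air and 293, 264 and 142 at 24 h and fell by 1.78 ± 0.23 (adjusted p = 4.43e-05). Cd79b gave 753, 1032 and 719.9 in air and 340.0, 264 and 131 at 24 h and fell by 1.78 ± 0.25 (adjusted p = 0.000135). Ms4a1 (CD20) gave 489, 775 and 566 in air and 199, 240.3 and 118 at 24 h and fell by 1.66 ± 0.28 (adjusted p = 0.000605). Pou2af1, a coactivator of immunoglobulin genes, gave 226, 261 and 220.2 in air and 88.3, 106 and 32.7 at 24 h and fell by 1.56 ± 0.32 (adjusted p = 0.00421). Cd37, a tetraspanin of mature B cells, gave 512, 582 and 377 in air and 157, 191 and 51.8 at 24 h and fell by 1.89 ± 0.36 (adjusted p = 0.00173). In none of these genes did the groups overlap, and 24 h replicate 3 was lowest in all 5. Cd37 has another probe set above the signal filter, which differed less, by -0.42. Ighv14-2, an immunoglobulin heavy chain segment on none of the lists, gave 397, 394 and 488 in air and 94.8, 70.4 and 13.1 at 24 h and fell by 2.75 ± 0.35 (adjusted p = 4.18e-05). The summed signal of the 14 genes was 6799.5 to 8832.5 in air and 3738.5 to 4261.4 at 24 h. Of the 14 genes 6 passed without 24 h replicate 3.

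T and NK cell genes fell in 7 of the 10 tested and rose in 0 (median -1.08). Gzma (granzyme A), a protease of killer cells, gave 1277, 1562 and 879.7 in air and 380.4, 414 and 289.9 at 24 h and fell by 1.71 ± 0.30 (adjusted p = 0.000979). Nkg7, a granule protein of the same cells, gave 468, 432 and 378 in air and 204, 162 and 165 at 24 h and fell by 1.20 ± 0.22 (adjusted p = 0.0016). Ms4a4b, a membrane protein of T cells, gave 663, 522 and 398 in air and 203, 134 and 89.9 at 24 h and fell by 1.81 ± 0.30 (adjusted p = 0.000527). Cd3g, a chain of the T cell receptor complex, gave 308, 306 and 272 in air and 90.0, 176 and 116 at 24 h and fell by 1.16 ± 0.20 (adjusted p = 0.000988). All 24 h arrays lay below air in these 4 genes. Cd3d, another chain of it, gave 339, 328 and 373 in air and 33.5, 129.8 and 57.9 at 24 h and fell by 2.16 ± 0.55 (adjusted p = 0.0186); this call was lost without air replicate 1, 2 or 3 or 24 h replicate 1 or 3 (adjusted p from 0.0117 to 0.0874). Cd3e gave 60.3, 311 and 272 in air and 236, 51.6 and 233 at 24 h, an overlap with a difference of -0.25 ± 0.73 (adjusted p = 0.901). Ncr1, a receptor of NK cells, fell by 1.01 ± 0.24 (adjusted p = 0.01), a call that was lost without air replicate 2 or 24 h replicate 2 (adjusted p from 0.0107 to 0.0631). Thy1 fell by 0.43 ± 0.12 (adjusted p = 0.0366), a call that was lost without air replicate 1 or 3 or 24 h replicate 2 or 3 (adjusted p from 0.0122 to 0.22). Klrd1 and Klrk1, NK cell receptors, differed by -0.95 ± 0.34 (adjusted p = 0.104) and 0.0066 ± 0.25 (adjusted p = 0.992). The summed signal of the 10 genes was 3622.3 to 4615 in air and 1589.6 to 1963.8 at 24 h. Without 24 h replicate 2, or without replicate 3, 5 of the 10 passed.

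Red cell genes lay lower at 24 h in part. The summed signal of 4 red cell genes was 6976.9 to 10471.1 in air and 5846.7 to 7109.7 at 24 h, and their mean at 24 h was -0.87, -0.59 and -0.47 relative to air in replicates 1 to 3. None of the 4 passed; Slc4a1, the anion exchanger of red cells, gave 198, 337 and 216 in air and 64, 96.1 and 159 at 24 h and differed by -1.16 ± 0.37 (adjusted p = 0.0605), and Bpgm by -0.72 ± 0.23 (adjusted p = 0.0657), both with no overlap. The haemoglobin genes were not among the genes tested. The part of blood content in the falls of leukocyte genes was not tested.

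**Figure D4:**
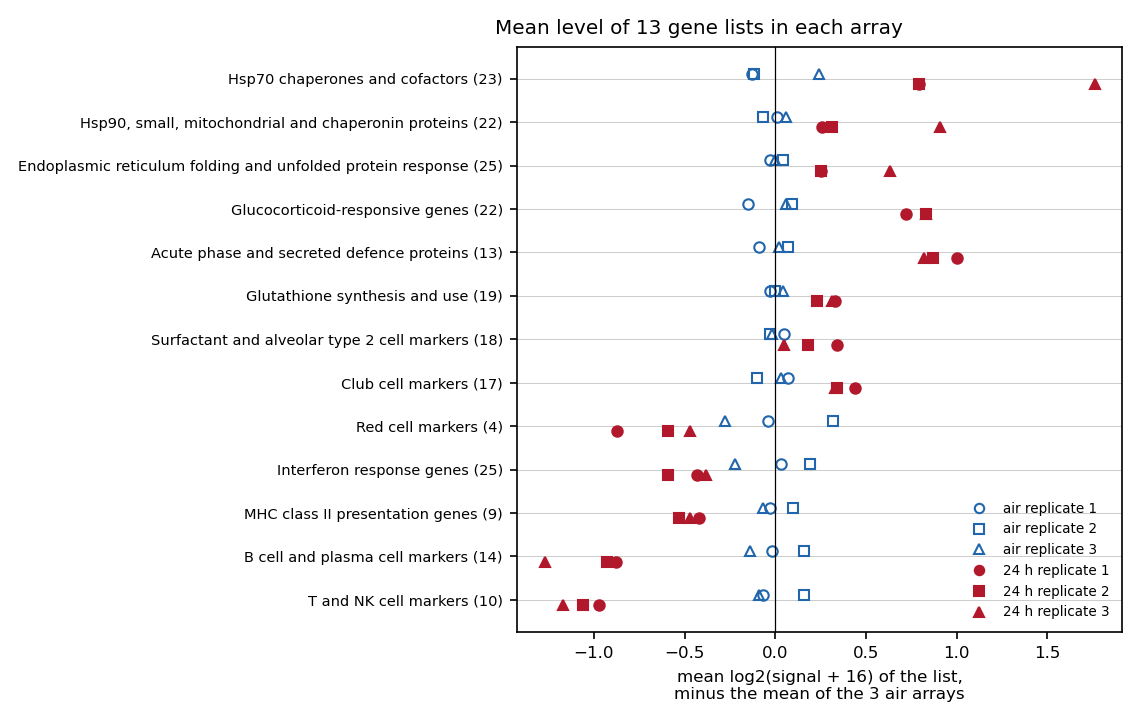
Mean log2(signal + 16) of 13 gene lists in each of the 6 arrays, relative to the mean of the 3 air arrays; open symbols are air, filled symbols 24 h. In the Hsp70 list 24 h replicate 3 lies at 1.76 and replicates 1 and 2 at 0.79, while in the B cell and the T and NK cell lists all 24 h arrays lie below all air arrays.

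Of 9 neutrophil genes tested 1 rose and 2 fell (median -0.25), and 8 of the 9 differences lay below 0. Over all genes tested 4416 of 8008 differences lay below 0. The mean of the list was -0.28, -0.42 and -0.51 relative to air in 24 h replicates 1 to 3 and 0.12, -0.10 and -0.02 in the air arrays. S100a8 and S100a9, the calprotectin subunits abundant in neutrophils, lay lower in every 24 h array than in any air array. S100a8 gave 1436, 1032 and 1079 in air and 352, 319 and 180.2 at 24 h and fell by 2.04 ± 0.32 (adjusted p = 0.000318). S100a9 gave 1361, 909 and 1038 in air and 253, 234 and 292 at 24 h and fell by 2.01 ± 0.30 (adjusted p = 0.000218). Lrg1, a secreted glycoprotein of neutrophils and endothelium, gave 1166, 1061 and 694 in air and 3791, 3221 and 1849.7 at 24 h and rose by 1.56 ± 0.28 (adjusted p = 0.00111). The other 6 did not pass; Csf3r, the receptor of G-CSF, differed by -0.45 ± 0.19 (adjusted p = 0.162) and Ngp by -0.035 ± 0.30 (adjusted p = 0.967). The summed signal of all 9 was 7751.9 to 9469.8 in air and 7282.3 to 8882 at 24 h. None of 16 macrophage genes passed. Marco, a scavenger receptor of alveolar macrophages, gave 26.4, 62.7 and 21.8 in air and 101, 89.3 and 85.1 at 24 h, with no overlap and a difference of 1.10 ± 0.42 (adjusted p = 0.132). Chil3 gave 2416, 2894 and 3171 in air and 3546, 4967 and 3687 at 24 h, again with no overlap. Of 6 dendritic and mast cell genes Irf8, a transcription factor of dendritic cells, fell by 0.42 ± 0.13 (adjusted p = 0.0483), a call that was lost in each of the 6 fits (adjusted p from 0.06 to 0.209). Lst1, a leukocyte transcript on none of the lists, gave 797, 584 and 585 in air and 179, 230.1 and 177 at 24 h and fell by 1.66 ± 0.27 (adjusted p = 0.000538).

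Interferon response genes fell in 8 of 25 cases and rose in 0 (median -0.53). Tap1, which carries peptides to MHC class I, gave 877, 736 and 562 in air and 390.5, 354 and 341 at 24 h and fell by 0.95 ± 0.15 (adjusted p = 0.000357). Iigp1, an interferon-inducible GTPase, gave 1344, 1694 and 1091 in air and 773, 739.7 and 789 at 24 h and fell by 0.81 ± 0.13 (adjusted p = 0.000461). Gbp2, a guanylate-binding protein, gave 794, 936 and 690.1 in air and 453, 363 and 339.5 at 24 h and fell by 1.04 ± 0.19 (adjusted p = 0.0016). Its relative Gbp2b gave 908, 1213 and 881 in air and 583, 530.0 and 635 at 24 h and fell by 0.75 ± 0.15 (adjusted p = 0.0025). Psmb8, an immunoproteasome subunit, fell by 0.59 ± 0.13 (adjusted p = 0.00701), a call that was lost without air replicate 1 (adjusted p from 0.00323 to 0.0621). Under median centring 5 of the 25 passed, and so did 5 without air replicate 1 or 2 or 24 h replicate 2 or 3. None of 6 MHC class I genes passed, with differences from -0.55 ± 0.32 for H2-M3 to -0.10 ± 0.21 for Erap1, a peptidase that trims class I peptides.

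Of 9 MHC class II presentation genes 3 fell (median -0.50). H2-DMa, which loads peptides onto class II, gave 865, 999.7 and 697 in air and 469, 394 and 339.5 at 24 h and fell by 1.06 ± 0.17 (adjusted p = 0.000532). H2-Eb1, a class II beta chain, gave 4063, 3638 and 3748 in air and 2852, 2351 and 2670.3 at 24 h and fell by 0.54 ± 0.13 (adjusted p = 0.0138), a call that was lost without air replicate 1 or 24 h replicate 2 (adjusted p from 0.0167 to 0.0712). H2-Oa, a class II modulator of B cells, fell by 0.75 ± 0.16 (adjusted p = 0.00599), a call that was lost without air replicate 2 (adjusted p from 0.00411 to 0.0583). Cd74, the invariant chain, gave 15776, 14012 and 13139 in air and 13039.8, 10399.5 and 14097 at 24 h with overlap (adjusted p = 0.404), and Ciita, the class II coactivator, differed by -0.50 ± 0.23 (adjusted p = 0.224).

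Alveolar type 2 markers rose in 6 of 18 cases and fell in 0 (median 0.19). Fasn, fatty acid synthase, which supplies surfactant lipid, gave 2057, 2350.5 and 2356 in air and 3793, 3436 and 3106 at 24 h and rose by 0.61 ± 0.12 (adjusted p = 0.00249). Sftpd (surfactant protein D) gave 18102, 14655 and 16241 in air and 23490.1, 20199 and 20167 at 24 h and rose by 0.38 ± 0.09 (adjusted p = 0.0101), a call that was lost without air replicate 2 or 24 h replicate 1 (adjusted p from 0.0071 to 0.075). Ctsh, a cathepsin that processes surfactant proteins, rose by 0.53 ± 0.13 (adjusted p = 0.0161), a call that was lost without air replicate 2 or 3 or 24 h replicate 1 or 2 (adjusted p from 0.00789 to 0.0733). Chil1, a chitinase-like protein, rose by 0.56 ± 0.15 (adjusted p = 0.0302), a call that was lost in each of the 6 fits (adjusted p from 0.055 to 0.109). Under quantile normalization 3 of the markers passed as higher and 1 as lower, and without 24 h replicate 1, 2 passed as higher and 1 as lower. Without air replicate 2 the rises were 2. Of 16 alveolar type 1 markers only Timp3 passed, with a list median of -0.057 whose sign changes with the scaling.

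Club cell markers rose in 5 of 17 cases and fell in 0 (median 0.20); quantile normalization gave 5 rises and 1 fall. They were Hp, Retnla, Aldh1a7 and Gsta3, described above, and Kcnk1, a potassium channel, which gave 347, 297 and 328 in air and 502, 492 and 519 at 24 h and rose by 0.62 ± 0.13 (adjusted p = 0.0051). Tppp3, a tubulin-binding protein of ciliated cells, gave 3512, 3659 and 4018 in air and 1980.3, 2012 and 2270.4 at 24 h and fell by 0.83 ± 0.16 (adjusted p = 0.00271). It was the single gene of 8 ciliated cell markers that passed; without air replicate 2 or 24 h replicate 2 another rose beside it. Foxj1, the regulator of cilia genes, gave 375, 590.2 and 405 in air and 640.5, 474 and 1002 at 24 h, with overlap and a difference of 0.57 ± 0.20 (adjusted p = 0.0927). None of 4 mucous and basal cell genes passed: Muc5b differed by 0.094 ± 0.29 (adjusted p = 0.908), while Muc5ac, Krt5 and Trp63 were under the signal filter.

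Keratins and epithelial repair genes held 3 rises and 1 fall among 18. Krt8 and Krt18, the keratin pair of simple epithelium, rose together. Krt8 gave 2469, 2323 and 2611 in air and 4063, 3978 and 4415 at 24 h and differed by 0.75 ± 0.11 (adjusted p = 0.000221), and Krt18 gave 1569.8, 1539 and 1885 in air and 2623, 2976 and 3048 at 24 h and differed by 0.79 ± 0.14 (adjusted p = 0.000854). Sprr1a, a cornified envelope protein induced by injury, gave 171, 126 and 153 in air and 778, 751 and 285 at 24 h, lowest of the 24 h arrays in replicate 3, and rose by 1.78 ± 0.27 (adjusted p = 0.000258). Itgb6, an epithelial integrin that activates TGF-beta, fell by 0.76 ± 0.23 (adjusted p = 0.0485), a call that was lost in each of the 6 fits (adjusted p from 0.0567 to 0.182). Of 10 EGF receptor pathway genes 2 rose: Dusp6, a phosphatase of ERK, gave 2098, 1796 and 1886 in air and 3505, 3506 and 2538 at 24 h and rose by 0.71 ± 0.16 (adjusted p = 0.0067), and Errfi1, a feedback inhibitor of the receptor, rose by 0.79 ± 0.20 (adjusted p = 0.02), a call that was lost without air replicate 1 or 2 or 24 h replicate 3 (adjusted p from 0.0247 to 0.111). Egfr differed by 0.027 ± 0.15 (adjusted p = 0.95), Hbegf by 0.06 ± 0.17 (adjusted p = 0.902) and Tgfa by -0.043 ± 0.21 (adjusted p = 0.942); the probe sets of Hbegf and of Tgfa differ in sign. Among 18 ion and water transport genes Atp1b1, a subunit of the sodium pump, rose by 0.49 ± 0.12 (adjusted p = 0.0182), a call that was lost without air replicate 2 or 24 h replicate 1 (adjusted p from 0.02 to 0.112). Car2, a carbonic anhydrase, fell by 0.42 ± 0.11 (adjusted p = 0.0287), a call that was lost without air replicate 1, 2 or 3 or 24 h replicate 2 (adjusted p from 0.0292 to 0.14).

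Of 28 endothelial genes 4 rose and 3 fell. These 7 became 4 without air replicate 1 or 3, 2 without air replicate 2 and 3 without 24 h replicate 2 or 3. Kdr, the main VEGF receptor, gave 4139, 3826 and 3649 in air and 2200.5, 2443 and 2402 at 24 h and fell by 0.72 ± 0.15 (adjusted p = 0.00513). Klf4, a transcription factor of endothelium and epithelium, gave 964, 1591 and 1863 in air and 2601, 3314 and 2394 at 24 h and rose by 0.94 ± 0.18 (adjusted p = 0.00229). Aplnr, the apelin receptor, gave 3968, 3339 and 2992 in air and 2253, 2338 and 1588 at 24 h; the fall by 0.74 ± 0.20 (adjusted p = 0.0233) was lost without air replicate 1 or 2 or 24 h replicate 3 (adjusted p from 0.0238 to 0.144). Lyve1, a lymphatic hyaluronan receptor, rose by 0.96 ± 0.27 (adjusted p = 0.0337), a call that was lost without air replicate 1, 2 or 3 or 24 h replicate 2 or 3 (adjusted p from 0.0328 to 0.125). Ednrb, an endothelin receptor, fell by 0.62 ± 0.18 (adjusted p = 0.0429), a call that was lost without air replicate 1 or 2 or 24 h replicate 2 or 3 (adjusted p from 0.0241 to 0.238). The summed signal of the list was 82349.4 to 93175 in air and 90241 to 92156.3 at 24 h.

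Regulators of lung mesenchyme held 2 rises and 3 falls among 28. Npr3, the clearance receptor of natriuretic peptides, gave 740.1, 562 and 668 in air and 2464, 2271 and 2718 at 24 h and rose by 1.90 ± 0.22 (adjusted p = 1.03e-05). Its 3 probe sets above the signal filter differed by 0.91 to 1.90. Meis1, a homeobox factor, gave 706, 522 and 713 in air and 292, 272 and 266 at 24 h and fell by 1.17 ± 0.21 (adjusted p = 0.00104). Tbx2, a T-box factor of lung mesenchyme, gave 2077, 1869.8 and 1864 in air and 1383, 1371 and 1061 at 24 h and fell by 0.61 ± 0.12 (adjusted p = 0.00211). Tgfb2 fell by 0.64 ± 0.15 (adjusted p = 0.0101), a call that was lost without 24 h replicate 2 (adjusted p from 0.0187 to 0.0523). Id1, a target of BMP signalling, rose by 0.51 ± 0.15 (adjusted p = 0.0379), a call that was lost without air replicate 1, 2 or 3 or 24 h replicate 2 or 3 (adjusted p from 0.0329 to 0.159).

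Of 26 collagen genes 2 rose, both collagen prolyl hydroxylases: P4ha1 gave 739, 760.4 and 829.5 in air and 1132, 1108 and 2881 at 24 h, a rise by 0.97 ± 0.22 (adjusted p = 0.00809), and P4ha2 gave 651, 549 and 645 in air and 810.1, 1172 and 1589 at 24 h, a rise by 0.89 ± 0.18 (adjusted p = 0.00352). In both 24 h replicate 3 was highest. Of 20 elastic fibre and basement membrane genes Ltbp2, a fibrillin-associated protein, gave 654, 689 and 624 in air and 990.0, 982 and 886 at 24 h and rose by 0.53 ± 0.10 (adjusted p = 0.00136). Lama4, a laminin chain of vessels, fell by 0.44 ± 0.12 (adjusted p = 0.0303), a call that was lost without air replicate 1 or 2 or 24 h replicate 2 or 3 (adjusted p from 0.0407 to 0.147). None of 13 smooth muscle genes passed; Acta2 differed by 0.27 ± 0.15 (adjusted p = 0.34). Of 22 cytoskeleton genes Zyx, a focal adhesion protein, fell by 0.53 ± 0.12 (adjusted p = 0.0101), a call that was lost without 24 h replicate 3 (adjusted p from 0.0186 to 0.0672). Myh7, a cardiac myosin also present in the sleeves of muscle round pulmonary veins, was the single gene of 19 cardiac markers that passed; it gave 1016, 909 and 944 in air and 564, 536 and 516 at 24 h and fell by 0.81 ± 0.12 (adjusted p = 0.000258). The summed cardiac signal was 15383.5 to 23850.3 in air, highest in replicate 3, and 16617 to 20118.8 at 24 h. None of 5 adipose genes passed, with sums of 3755.8 to 4500.3 and 4822.8 to 6195.2.

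Glucocorticoid-responsive genes rose in 11 of 22 cases and fell in 0, with a median of 0.79. Zbtb16 (PLZF), a transcription factor strongly induced by the glucocorticoid receptor, gave 147, 161 and 184 in air and 713, 712 and 637 at 24 h and rose by 1.97 ± 0.47 (adjusted p = 0.0112). Cebpb, a transcription factor of acute phase genes, gave 1792, 2031 and 2020.0 in air and 2784, 3003 and 4407 at 24 h; the rise of 0.77 ± 0.17 (adjusted p = 0.00558) was lost without 24 h replicate 3 (adjusted p from 0.00331 to 0.0576). Mt2, Lcn2 and Errfi1 also belong to this list. The mean of the list lay 0.72, 0.83 and 0.83 above air in 24 h replicates 1 to 3, yet 7, 5 and 4 of its genes passed without replicate 1, 2 or 3, and 4, 5 and 7 without air replicate 1, 2 or 3.

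Clock genes, which follow the hour of day, and immediate early genes, which answer any stimulus within a short time, changed in both directions: 1 of 14 clock genes rose and 1 fell, and 3 of 17 immediate early genes rose and 2 fell. Of the clock genes 1 passed without air replicate 1 or 2 or 24 h replicate 2, and 0 without 24 h replicate 3. Of the immediate early genes 3 passed without air replicate 1. Dbp, a clock output factor, gave 2193, 2289 and 1937 in air and 1073, 719 and 274 at 24 h and fell by 1.81 ± 0.40 (adjusted p = 0.00682), a call that was lost without 24 h replicate 3 (adjusted p from 0.00199 to 0.0702). Per2, a clock repressor that stress hormones also induce, gave 205, 298 and 654 in air and 606, 688 and 797 at 24 h with overlap and rose by 0.98 ± 0.29 (adjusted p = 0.0422); the call was lost without air replicate 1 or 2 or 24 h replicate 1, 2 or 3 (adjusted p from 0.0015 to 0.263). Fos gave 1376, 1816 and 3688 in air and 745, 846 and 1182 at 24 h and fell by 1.20 ± 0.27 (adjusted p = 0.0089), a call that was lost without air replicate 3 (adjusted p from 0.00344 to 0.0706). Egr1 gave 2011, 1629 and 3857 in air and 1181, 1004 and 1651 at 24 h with overlap and fell by 0.89 ± 0.27 (adjusted p = 0.0472), a call that was lost without air replicate 1 or 3 or 24 h replicate 1 or 2 (adjusted p from 0.0222 to 0.267). Maff, a small Maf partner of NRF2, gave 82, 114 and 206 in air and 483, 399 and 684 at 24 h and rose by 1.89 ± 0.26 (adjusted p = 9.47e-05). Atf3, a stress-induced factor, gave 107, 228 and 226 in air and 406, 309 and 732 at 24 h; it rose by 1.27 ± 0.29 (adjusted p = 0.00925), a call that was lost without air replicate 1 or 24 h replicate 3 (adjusted p from 0.00479 to 0.0894). Klf10 rose by 0.66 ± 0.16 (adjusted p = 0.0106), a call that was lost without air replicate 2 (adjusted p from 0.0163 to 0.0575). Air replicate 3 was highest of the air arrays in Fos, Egr1 and Per2, and the labels do not state the hour of sampling.

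None of the proliferation genes tested passed at 24 h against air: 0 of 12 mitosis genes and 0 of 14 DNA replication genes. On the array 13 more mitosis genes and 11 more DNA replication genes were under the signal filter. The share over all genes was 6.57%, so counts of 0 in lists of this size lie near it. Ccnb2, a mitotic cyclin, gave 152, 107 and 114 in air and 72.6, 78.1 and 53.5 at 24 h, with all 24 h arrays below air and a difference of -0.74 ± 0.25 (adjusted p = 0.0749). These signals lay under the cut-off of the signal filter in every array of both groups. Pcna, the replication clamp, differed by 0.23 ± 0.10 (adjusted p = 0.208). Pttg1 (securin), on neither list, gave 893, 971 and 895 in air and 677, 655 and 496 at 24 h and fell by 0.59 ± 0.13 (adjusted p = 0.00809), a call that was lost without 24 h replicate 3 (adjusted p from 0.0075 to 0.0755). Of 16 p53 targets Cdkn1a (p21), an inhibitor of the cell cycle, gave 684, 1140.2 and 822 in air and 1652, 2094 and 2649.8 at 24 h and rose by 1.26 ± 0.36 (adjusted p = 0.0354), a call that was lost without air replicate 1 or 3 or 24 h replicate 2 or 3 (adjusted p from 0.0366 to 0.149).

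None of 30 oxidative phosphorylation genes and none of 18 cholesterol synthesis genes passed; Idi1, an isoprenoid enzyme, differed by 0.61 ± 0.19 (adjusted p = 0.0563), and Ndufb9, of complex I, by -0.22 ± 0.10 (adjusted p = 0.226). Of 21 fatty acid genes 3 rose, namely Fasn, Angptl4 by 0.95 ± 0.27 (adjusted p = 0.0348) and Scd1 by 0.49 ± 0.14 (adjusted p = 0.0356). The call of Angptl4, an inhibitor of lipoprotein lipase, was lost in each of the 6 fits (adjusted p from 0.0632 to 0.114); that of Scd1, a desaturase, was lost without air replicate 1 or 2 or 24 h replicate 1 or 3 (adjusted p from 0.0278 to 0.145). Of 21 glycolysis and hypoxia genes 2 rose and 1 fell. Ldha, lactate dehydrogenase, rose by 0.40 ± 0.11 (adjusted p = 0.0299), a call that was lost without air replicate 1 or 3 or 24 h replicate 1, 2 or 3 (adjusted p from 0.0393 to 0.117). Adm (adrenomedullin), a peptide that protects vessels, rose by 1.86 ± 0.56 (adjusted p = 0.0488) from signals of 28.6, 15.3 and 15.5 in air and 86.2, 90.5 and 178 at 24 h, a call that was lost in each of the 6 fits (adjusted p from 0.0718 to 0.202); with an added constant of 64 the rise was 1.09 (adjusted p = 0.0504). Pfkfb3, a glycolysis activator, fell by 0.49 ± 0.15 (adjusted p = 0.0452), a call that was lost without air replicate 1, 2 or 3 or 24 h replicate 2 or 3 (adjusted p from 0.0464 to 0.16). Of 22 lysosome genes 2 rose: Ctsh, and Npc2, a cholesterol carrier found with surfactant, by 0.49 ± 0.11 (adjusted p = 0.00821), a call that was lost without air replicate 2 or 3 or 24 h replicate 1 (adjusted p from 0.00151 to 0.0561). Among 8 polyamine and arginine genes Oat, ornithine aminotransferase, rose by 0.45 ± 0.11 (adjusted p = 0.00995), a call that was lost without air replicate 1 or 3 or 24 h replicate 3 (adjusted p from 0.00459 to 0.078).

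Against 6 h of ozone in the same strain, 176 genes differed at 24 h (2.2%), 92 higher (1.15%) and 84 lower (1.05%). This comparison also crosses the code series, and it shares the 24 h arrays with the comparison to air. Without 24 h replicate 3 the count was 56, and without 6 h replicate 1, 2 or 3 it was 60, 97 or 81. Heat shock genes were higher at the later time: 12 of the 23 Hsp70 genes passed and 5 of the 22 Hsp90 and small heat shock genes. Mean signals of Hsph1 were 357 ± 48.1 (SD, n = 3) at 6 h and 4875 ± 4783 at 24 h, a difference of 3.28 ± 0.39 (adjusted p = 8.08e-05). Hspa1b went from 342 ± 144 to 7296 ± 5858, by 4.17 ± 0.62 (adjusted p = 0.000629). Timp1 went from 366 ± 40.6 to 1647 ± 149, by 2.12 ± 0.20 (adjusted p = 2.29e-06). Saa3 differed by 2.14 ± 0.30 (adjusted p = 0.000466), Hspa8 by 1.07 ± 0.15 (adjusted p = 0.000466) and Sox7, an endothelial transcription factor, by 1.13 ± 0.16 (adjusted p = 0.000466). Lower at 24 h than at 6 h were Ighv14-2, with a difference of -2.13 ± 0.35 (adjusted p = 0.00132), Cirbp, with -1.28 ± 0.19 (adjusted p = 0.000629), Srsf5, with -0.89 ± 0.13 (adjusted p = 0.000466), and Pfkfb3, with -0.86 ± 0.15 (adjusted p = 0.00192). Zbtb22, a zinc finger protein, and Hunk, a kinase, were lower too, with -1.01 ± 0.14 (adjusted p = 0.000466) and -0.81 ± 0.12 (adjusted p = 0.000629). Mt2 differed by 0.47 ± 0.21 between the times (adjusted p = 0.3) and Zbtb16 by 0.16 ± 0.47 (adjusted p = 0.918), and neither passed.

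Between 24 and 48 h, which lie in 1 code series, 12 genes were higher at 48 h (0.15%) and 0 lower (0%). The 6 named below are cell cycle genes. Mki67, the Ki-67 antigen, had a mean signal of 123 ± 27.3 (SD, n = 3) at 24 h and 446 ± 37.9 at 48 h, a difference of 1.75 ± 0.27 (adjusted p = 0.00238). Ube2c, which tags mitotic cyclins for destruction, differed by 1.78 ± 0.20 (adjusted p = 1.96e-05), Ccnb2 by 1.73 ± 0.25 (adjusted p = 0.000762) and Pttg1 by 1.29 ± 0.13 (adjusted p = 1.41e-05). Prc1, of the mitotic spindle, differed by 1.32 ± 0.18 (adjusted p = 0.000388) and Pclaf, a PCNA partner, by 1.26 ± 0.20 (adjusted p = 0.00254). Of the lists, mitosis held 5 of the 12 tested and DNA replication 1 of 14. The mean of Mki67 at 24 h lay under the cut-off of the signal filter, and so did Ccnb2 in every 24 h array. Both entered through other arrays, so a gene could be tested here because it was high at 48 h. With a filter on the mean signal the 12 genes became 3, and with no filter 17, so these counts depend on the filter. Nearest to a fall was Mt2, which went from 4497 ± 617 to 2272 ± 434 (-0.99 ± 0.21, adjusted p = 0.0649), beside Slc44a3 (-0.50 ± 0.11, adjusted p = 0.0649) and Endog (-0.60 ± 0.13, adjusted p = 0.065). Without 24 h replicate 3 the count was 22 and without 48 h replicate 1 it was 6.

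**Figure D5:**
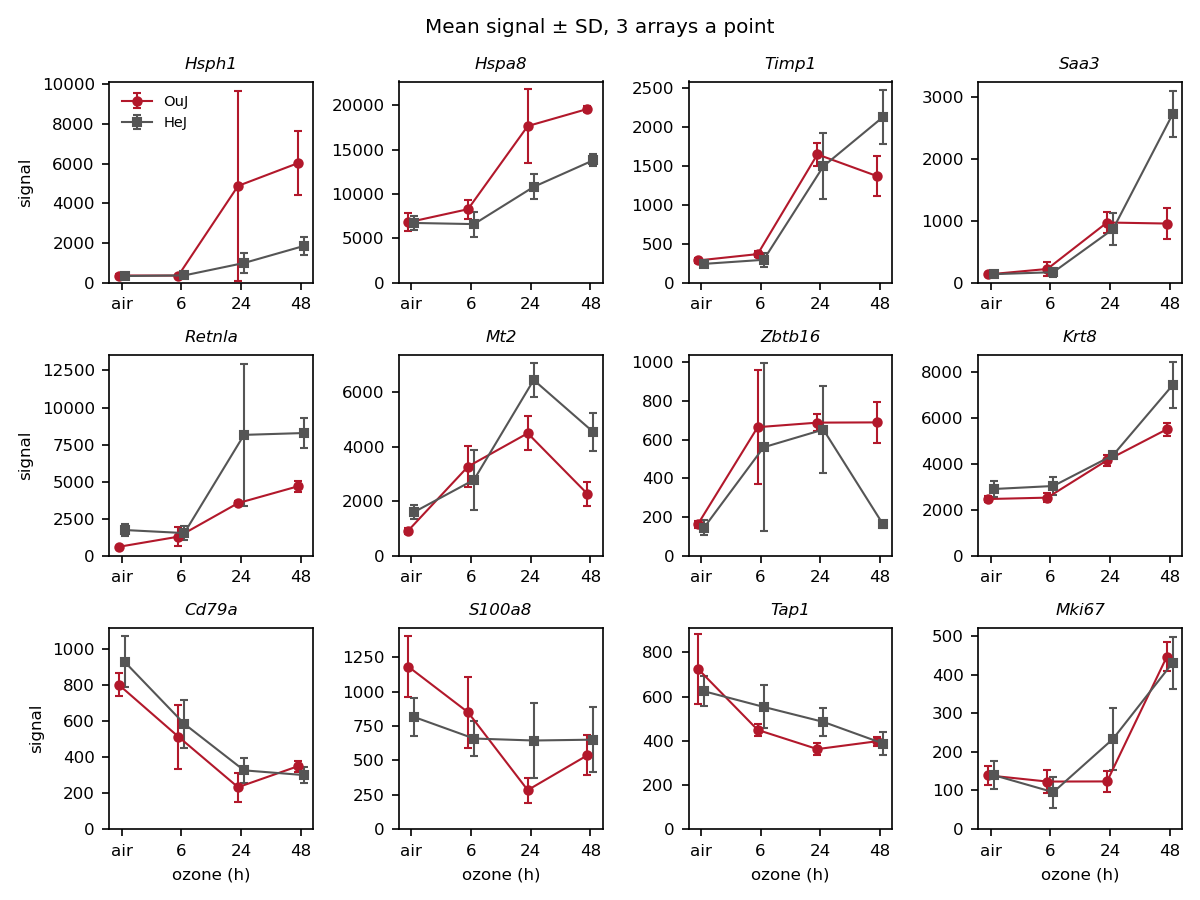
Mean signal ± SD (3 arrays) in air and at 6, 24 and 48 h of ozone of 12 genes, OuJ as red circles and HeJ as grey squares. Hsph1 in OuJ lies low at 6 h and high at 24 h, Mki67 in OuJ is highest at 48 h, and Cd79a lies below air at 24 h in both strains.

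The 24 h change in OuJ was set against that in HeJ, each from its own air arrays, to ask which changes differ with Tlr4. Both air groups lie in code series 3, the OuJ arrays at 24 h in series 10 and the HeJ arrays at 24 h in series 13, so a strain difference of the change and the code series cannot be told apart. Of 8008 genes 1 passed (0.0125%), with a smaller rise or larger fall in OuJ (0.0125%), and 0 in the other direction (0%). It was Xpo5 (exportin 5), which carries microRNA precursors out of the nucleus; none of the 5 microRNA pathway genes tested passed against air. Xpo5 gave 426, 429 and 447 in air and 349.6, 345 and 302 at 24 h in OuJ, a difference of -0.37 ± 0.12 (adjusted p = 0.0542), against 0.58 in HeJ (adjusted p = 0.00348); the strain difference was -0.95 ± 0.16 (adjusted p = 0.0497). Leaving out 1 of these 12 arrays at a time, the call of Xpo5 was lost in 9 fits and held in 3, those without OuJ 24 h replicate 2 or HeJ air replicate 1 or 2 (adjusted p from 0.0309 to 0.226). The genes nearest to the threshold in the other direction were Apbb2 (0.73 ± 0.15, adjusted p = 0.145), Hlf (1.00 ± 0.21, adjusted p = 0.176) and Ddit3 (1.06 ± 0.23, adjusted p = 0.212). For Apbb2 the change was 0.19 ± 0.10 in OuJ and -0.54 in HeJ, for Hlf 0.033 ± 0.15 and -0.97, and for Ddit3 0.71 ± 0.16 and -0.36. The Gapdh 5' to 3' ratios of HeJ were 0.511 to 0.621 in air and 0.605 to 0.944 at 24 h, and their part in this comparison was not tested.

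None of the 12 largest rises and 12 largest falls in OuJ passed the test of the strain difference. Hsph1 changed by 3.28 ± 0.39 in OuJ and had a value of 1.42 in HeJ, a strain difference of 1.85 ± 0.56 (adjusted p = 0.336). For S100a8 the values were -2.04 ± 0.32 and -0.43, with a strain difference of -1.61 ± 0.45 (adjusted p = 0.33). For Il33 they were 0.91 ± 0.19 and -0.027, with 0.94 ± 0.28 (adjusted p = 0.33), and for Srsf5 -0.70 ± 0.13 and -0.00053, with -0.70 ± 0.18 (adjusted p = 0.33). Timp1 and Cd79a had strain differences of -0.051 ± 0.28 (adjusted p = 0.981) and -0.30 ± 0.33 (adjusted p = 0.878). Marco had mean signals of 37.0 ± 22.4 in OuJ air, 91.9 ± 8.41 in OuJ at 24 h, 184 ± 55.8 in HeJ air and 399 ± 194 in HeJ at 24 h, with a strain difference of the change of 0.11 ± 0.60 (adjusted p = 0.981). A p that misses the threshold does not show that the strains responded alike.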

How the data were processed

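RNA of 24 left lung lobes was measured on Affymetrix Mouse 430A 2.0 arrays, 3 mice in each of 8 groups, which were taken from the labels alone. Per the labels' protocols RNA was extracted with TRIZOL and RNeasy and labelled with biotin. The authors deposited linear signal intensity for 22690 probe sets, made with GCOS 1.4, per the submitters' processing notes. On the table each array's mean after trimming 2% per tail was about equal. Values ran from 0 to 46857.3; raw image files and detection calls were not used, so low signals may be background.

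The scale used here was log2(intensity + 16). A probe set stayed in (12895 did) where 3 or more of the 24 arrays exceeded 218.3, the table's overall median. Of all probe sets 20380 carry 1 symbol, 691 several, 1555 none and 64 are controls; 20364 symbols matched the RefSeq gene table. For each gene the probe set of highest mean was chosen among the 11843 that stayed in and carry 1 symbol. This gave 8008 genes; 2645 had more than 1 to choose from. Of 235 genes considered by name, 9 have probe sets of both signs. In others the size differs, as in Cct4 (0.14 to 0.46 over 5 probe sets) and Cp (0.21 to 0.60 over 7). Probe sequences were not used, so cross-hybridization was not tested.

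All 24 arrays entered a single limma (3.58.1, R 4.3.3) model of group means, its moderated variances following an intensity trend (16 residual and 6.951 prior degrees of freedom). Genes passed at a Benjamini-Hochberg adjusted p under 0.05 over all genes, two-sided; 1594 genes had an unadjusted p under 0.05 in the comparison of 24 h with air. The model was tested on simulated data. The number of arrays limits the precision.

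Members, gene lists (58, with 1204 genes, 896 of them tested) and tests were chosen with earlier results of these data known, so list counts are descriptions without a test. Genes were named by rule: the 12 largest rises and 12 largest falls among genes that passed with the 3 arrays of 24 h all beyond the 3 air arrays; up to 5 members of each list that passed, smallest p first, or up to 2 where none passed; for each other comparison up to 6 per direction that passed, or 3 where none did; Tlr4, Marco, Hspa1a and Hspa1b always; and any member of a list of 10 or fewer tested. Chaperone genes named beside the heat shock element were chosen because they passed and hold it. Promoter windows and their sequences come from the RefSeq table of GRCm38.p6.

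Alternatives were other pseudocounts, filters, normalizations and variance models, array weights, the mean of probe sets, the replicate number as a block, and leaving out each array; leaving out OuJ 6 and 48 h and HeJ arrays was chosen after seeing the data.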

Additional observations from a re-analysis of the deposited data

Results flagged for a closer look

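Xpo5 (exportin 5, the nuclear exporter of microRNA precursors) was the single gene whose 24 h change differed between the strains by a test of the difference itself. The change in OuJ minus that in HeJ was -0.95 ± 0.16 (limma, adjusted p = 0.0497 over 8008 genes, 3 arrays in each of 4 groups). In OuJ the signals were 426, 429 and 447 in air and 349.6, 345 and 302 at 24 h, all 3 lower, and in HeJ the mean changed by 0.58 (adjusted p = 0.00348). The call lies at the threshold and was lost under 7 of the other settings, and in 9 of the 12 fits that left out 1 array (adjusted p from 0.0309 to 0.226). The 24 h arrays of the strains lie in different code series, 10 and 13, so strain and code series cannot be told apart here.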

How the results depend on the processing

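Of the 140 named genes that passed at 24 h against air, 76 passed under every alternative and 78 in all 6 fits that left out 1 of the 6 arrays; 47 were lost without 24 h replicate 3. Of the 140 that passed, 0 changed sign under an alternative. Of the 95 that did not pass, 15 passed under at least 1 alternative. Some of the 95 changed sign, as Cd3e, which ran from -0.92 to 0.37 over the alternatives. Leaving out 1 array gave 243 to 415 genes for 24 h against air, 112 to 192 higher and 131 to 226 lower. Fewer genes were lower under median centring (170). Where the fit held the compared groups alone, 355 genes passed, 174 higher and 181 lower, and 310 of these also passed in the main fit. In that smaller fit 8 of the 23 Hsp70 genes passed, and 2 of the 22 Hsp90, small heat shock and chaperonin genes. The strain difference went from 1 gene to 0 with a pseudocount of 64, no filter, a filter on the mean, quantile normalization, median centring, only the groups compared and array weights, and to 0 to 3 with 1 array left out. For 48 against 24 h the 12 genes became 3 with a filter on the mean, 21 with median centring, 19 with no intensity trend, 6 with only the groups compared, 27 with array weights and 6 to 22 with 1 array left out. For 24 against 6 h the 176 genes became 20 with only the groups compared and 56 to 190 with 1 array left out. Beside fewer samples in the smaller fits, the cause was not tested.

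What arrays with the same replicate number share beside the number was not tested. Deviations of same-numbered air and 24 h arrays correlated at 0.04386, 0.1196 and 0.09612 across genes, and each air array correlated best with its own number at 24 h. With the number as a replicate block 575 genes passed, 281 higher and 294 lower. Searched on the strand of the gene alone, antioxidant elements stood in 6.38% of windows instead of 12.4% and metal elements in 30.6% instead of 51%. Without detection calls, differences among low signals are the least certain.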

Other observations

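Of the 526 genes that passed, 164 belong to a list and 362 to none, 143 of them higher and 219 lower. The genes below are from the 10 largest rises and 10 largest falls on no list with no overlap between the groups, chosen after their values were seen; values are differences of log2(signal + 16), 24 h minus air, ± SE, with limma's adjusted p. Dedd2, a death effector domain protein, gave 117, 138 and 119 in air and 341, 321 and 607 at 24 h and rose by 1.59 ± 0.19 (adjusted p = 1.74e-05). Cyp7b1, an oxysterol hydroxylase, gave 112, 78.8 and 114 in air and 278, 276 and 339.9 at 24 h and rose by 1.42 ± 0.23 (adjusted p = 0.000406). Phlda1 gave 1036, 1015 and 1353 in air and 2035, 1843 and 3526 at 24 h and rose by 1.06 ± 0.16 (adjusted p = 0.000258). Cacybp, a partner of S100 proteins and ubiquitin ligases, gave 410.5, 516 and 519 in air and 697, 867 and 2809 at 24 h, with 24 h replicate 3 far above the others, and rose by 1.29 ± 0.29 (adjusted p = 0.00833). Among the other rises, Creb3l3, Riok2, Akr1c14, Medag and St3gal1 lay between 1.09 ± 0.28 for St3gal1 and 1.25 ± 0.36 for Creb3l3. The call of Creb3l3 was lost without air replicate 1 or 2 or 24 h replicate 2 or 3 (adjusted p from 0.0263 to 0.142), that of Riok2 was lost without air replicate 1 or 2 or 24 h replicate 1 or 3 (adjusted p from 0.00542 to 0.208), that of Akr1c14 was lost without air replicate 1 (adjusted p from 0.00804 to 0.056), that of Medag was lost without air replicate 1 or 2 or 24 h replicate 1, 2 or 3 (adjusted p from 0.0425 to 0.192) and that of St3gal1 was lost without air replicate 1 or 24 h replicate 3 (adjusted p from 0.0081 to 0.141).

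Several of the falls were further leukocyte genes. Coro1a, an actin-binding protein of leukocytes, gave 2290.2, 2335 and 2051 in air and 1034, 924 and 646 at 24 h and fell by 1.37 ± 0.19 (adjusted p = 8.33e-05). Fcer2a (CD23), the low-affinity IgE receptor of B cells, gave 347, 367 and 332 in air and 126, 149.5 and 83.6 at 24 h and fell by 1.46 ± 0.26 (adjusted p = 0.00116). Igkv8-30, an immunoglobulin light chain segment, gave 841, 1386 and 1003 in air and 354, 472 and 360.2 at 24 h and fell by 1.39 ± 0.26 (adjusted p = 0.0014). Ccr2, the monocyte receptor of CCL2, gave 184, 244 and 272 in air and 118, 39.2 and 115 at 24 h and fell by 1.31 ± 0.38 (adjusted p = 0.0367), a call that was lost without air replicate 1, 2 or 3 or 24 h replicate 2 (adjusted p from 0.031 to 0.186). Ms4a4c fell by 1.33 ± 0.22 (adjusted p = 0.000527). Rgs2, a regulator of G protein signalling, gave 2184, 2135 and 1659 in air and 722, 769 and 642 at 24 h and fell by 1.46 ± 0.14 (adjusted p = 1.24e-06). Rasd2 gave 671, 582 and 522 in air and 339.9, 303 and 53.7 at 24 h, lowest in 24 h replicate 3, and fell by 1.60 ± 0.37 (adjusted p = 0.00988), a call that was lost without air replicate 1 (adjusted p from 0.00199 to 0.0504). Vmn1r44, annotated as a vomeronasal receptor, gave 702, 581 and 572 in air and 42, 212 and 205 at 24 h and fell by 2.14 ± 0.58 (adjusted p = 0.0266), a call that was lost without air replicate 1, 2 or 3 or 24 h replicate 1 (adjusted p from 0.0237 to 0.149). Ighv14-2 and Lst1 complete the falls.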
